A study of Rattus norvegicus with 12 samples.

Results

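Carbonic anhydrases and the transporters that move chloride and bicarbonate across the neuronal membrane were described here through 9 genes, Car2, Car4, Car7, Car10, Car11, Slc12a2, Slc12a5, Slc4a3 and Slc4a8. Probes were taken by the gene name printed on the array, with the rat spellings Ca2 and Ca4 and the suffix that marks a predicted gene allowed. This rule found 10 probes for 8 of the 9 genes, among 41012 probes with 35716 distinct names, and it found none for Car10. The 9 genes were chosen from results of these same arrays, so their values are given as a description, without a test.

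The mRNA came from hippocampal neurons of E18.5 Sprague-Dawley rat embryos, dissociated and grown at high density, and the study asked how a lasting change of network activity alters gene expression. At 10 to 13 days in vitro the cultures received 1 of 3 treatments for 48 h. The CTL cultures received vehicle, which the labels give as 0.1% DMSO and the paper's account of the arrays as water. The TTX cultures received 0.5 to 1 μM tetrodotoxin, a blocker of voltage-gated Na+ channels that silences action potentials. The BC cultures received 20 μM bicuculline, an antagonist of GABA-A receptors that raises network activity. Each group had 4 RNA samples, and each was read with Cy3 on its own Agilent array for the rat genome. Nothing in the labels tells whether these were separate cultures, so SDs and p-values cover the variation among the 4 samples alone, which may be technical. A culture is a mixture of cell types, so fewer cells of a type and less RNA per cell cannot be told apart in any value below.

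Every one of the 4 slides held an array of CTL, of TTX and of BC. Between 74.1% and 78.1% of the probes were well above background on an array, and 13 to 40 spots per array were left out as outliers. Slides 1 and 3 were scanned before slides 2 and 4. Once each group's mean was subtracted, arrays from different groups deviated together within slides 1 and 3 and within slides 2 and 4 (r = 0.20 to 0.41 over 24 pairs). Arrays across these sets of slides deviated in opposite directions (r = −0.39 to −0.20 over 24 pairs). Differences within each slide are therefore given beside the group means. Of the cell type markers with a probe, 8 of 8 pan-neuronal, 15 of 15 interneuron, 8 of 8 glutamatergic, 10 of 10 astrocyte and 12 of 12 oligodendrocyte genes were well above background in at least 1 group (all 4 of its arrays), compared to 6 of 10 for microglia. Gad1, which makes GABA, was lower with TTX by a log2 fold change of −1.56 (limma adjusted p = 8.13e-07), whereas the astrocyte gene Gfap (−0.00, adjusted p = 1.00) and the myelin gene Mbp (0.06, adjusted p = 0.833) did not pass the thresholds. The endothelial gene Pecam1 was on no array well above background.

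Carbonic anhydrases interconvert carbon dioxide and bicarbonate, and they supply the bicarbonate that passes outward through open GABA-A receptors together with inward chloride. Slc12a5 encodes KCC2, the neuronal cotransporter that extrudes chloride with potassium. Slc12a2 encodes NKCC1, which carries chloride into the cell with sodium and potassium. The balance of these transporters sets whether GABA hyperpolarizes or depolarizes a neuron, and KCC2 gains on NKCC1 as hippocampal neurons mature. Slc4a3 encodes the anion exchanger AE3 and Slc4a8 encodes the sodium-driven chloride bicarbonate exchanger NDCBE, and both couple the chloride gradient to intracellular pH.

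The letters of 3 probes are shown. Those of Car7 and Slc4a8 carry the values of the members called between TTX and BC, and the third is the dimmer probe of Slc12a5, shown as a second reading of KCC2 because it lies across a splice junction. Each has 60 bases and lies over a longer stretch of the rn4 genome, so that it spans a splice junction. The Car7 probe lies at chr19:368303-372252 on the minus strand, the Slc4a8 probe at chr7:139572855-139574186 on the plus strand and the dimmer of the Slc12a5 probes at chr3:156033309-156034425 on the plus strand.
Car7: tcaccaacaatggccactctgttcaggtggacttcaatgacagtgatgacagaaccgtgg
Slc4a8: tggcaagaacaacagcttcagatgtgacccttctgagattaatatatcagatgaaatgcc
Slc12a5: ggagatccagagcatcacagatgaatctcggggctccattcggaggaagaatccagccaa

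**Figure D1:**
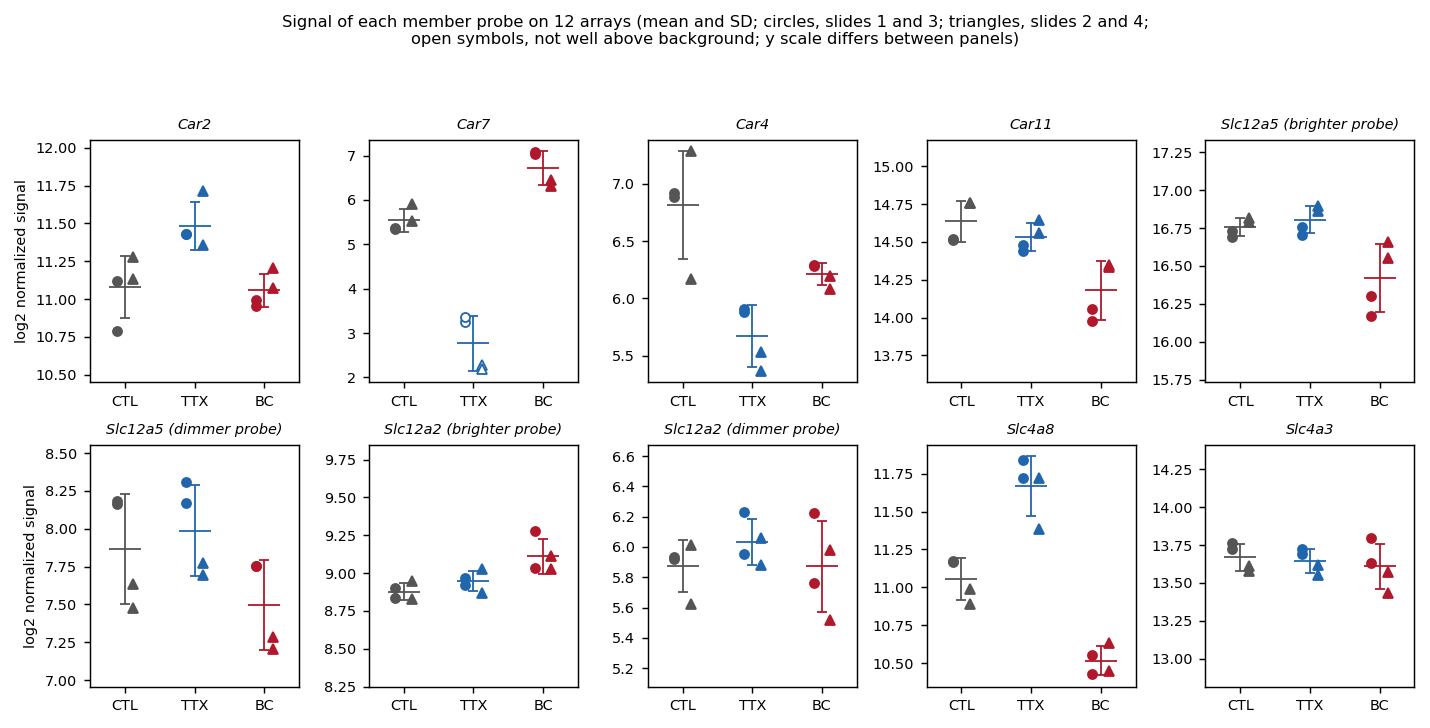
log2 normalized signal (y axis) of the 10 member probes in the CTL, TTX and BC groups (x axis), 1 symbol per array with the group mean and SD (n = 4). Circles are arrays of slides 1 and 3, triangles those of slides 2 and 4, and open symbols were not well above background; the y scale differs between panels. Car7 separates the 3 groups, from 2.19 to 3.35 with TTX to 6.32 to 7.08 with BC, and Slc4a8 separates them in the opposite order.

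A gene was called here at a limma FDR under 0.05 over all probes where it also differed by 1.5-fold or more, and a gene with several probes was represented by its brightest one. Of the 8 members, Car4 and Car7 were lower and Slc4a8 was higher with TTX, Car7 was higher with BC, and Car7 was lower and Slc4a8 higher in TTX than in BC. Over all genes tested the same rule called 4.18% between TTX and CTL (2.7% lower and 1.48% higher), 3.6% between BC and CTL (1.47% lower and 2.14% higher) and 10.9% between TTX and BC (6.19% lower and 4.68% higher). These shares are printed as background alone, because the members were picked on the same contrasts. The comparisons of TTX and of BC with CTL use the same 4 CTL arrays. Car2, Car11, Slc12a2, Slc12a5 and Slc4a3 passed both thresholds in none of the 3 comparisons. Every member spot was unsaturated. Of the 8 members, 7 were well above background on all 12 arrays, and Car7 was so on the 8 CTL and BC arrays.

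**Figure D2:**
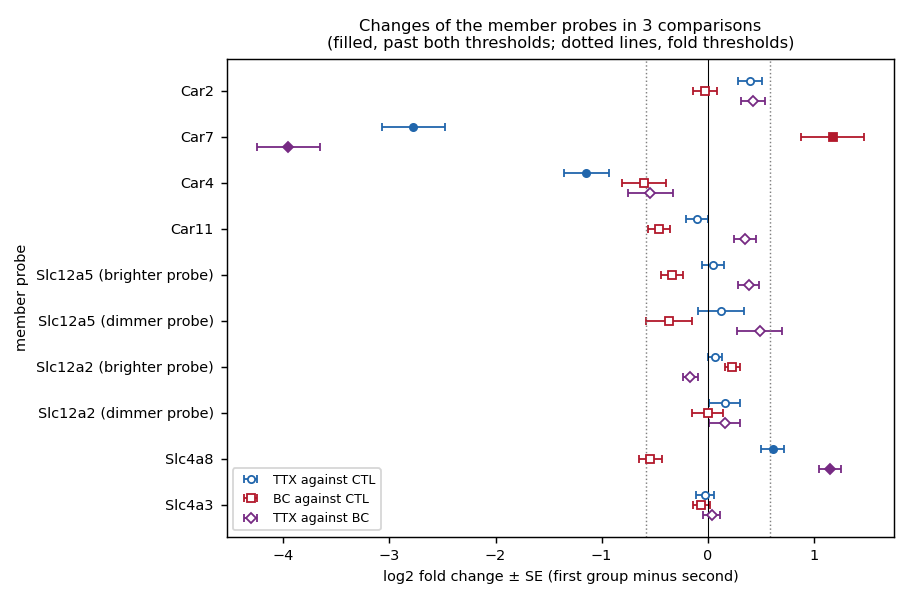
log2 fold change ± SE (x axis) of each of the 10 member probes (y axis) in the 3 comparisons. Filled symbols are past both thresholds and dotted lines mark a 1.5-fold difference in either direction; only Car4, Car7 and Slc4a8 have filled symbols.

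Car7 encodes a cytosolic carbonic anhydrase that is enriched in neurons and is known to drive bicarbonate-dependent GABA excitation in mature hippocampus. Its log2 signals were 5.35, 5.37, 5.53 and 5.91 on the CTL arrays (5.54 ± 0.26, SD, n = 4). With TTX they were 3.25, 3.35, 2.27 and 2.19 (2.77 ± 0.62, SD, n = 4), and with BC 6.32, 6.45, 7.08 and 7.03 (6.72 ± 0.39, SD, n = 4). Each TTX array lay below each CTL array and each BC array above them, so the 3 groups did not overlap. No TTX array was well above background for Car7, so the fold is a bound taken at the lowest signal that counted as well above background on those arrays. By the background-corrected signals of the main fit, Car7 was at least 3.86-fold lower in TTX than in CTL and at least 8.73-fold lower than in BC. The log2 differences as measured were −2.78 ± 0.30 (SE) and −3.95 ± 0.30 (SE). These sizes depended on the background correction: from signals without it, or with the normexp correction and its added offset, the TTX difference from CTL was −0.83 to −0.68 and the BC difference 0.66 to 0.71, each still past the thresholds.

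With BC, Car7 was higher than CTL by 1.18 ± 0.30 (log2, SE), or 2.26-fold. The rise was unequal between slides. Within slides 1 and 3 the BC array exceeded its CTL array by 1.73 and 1.66, compared to 0.91 and 0.41 within slides 2 and 4. The direction was thus the same on 4 of 4 slides, but the call was lost with slide set as a random block, with the arrays of a slide set averaged, with the replicate number as a block, and without BC replicate 2, 3 or 4 or CTL replicate 1, 2 or 3. The replicate block put each BC array with a CTL array of the other slide set. Leaving out CTL replicate 3 changed the BC call among the members from Car7 to Slc4a8. With TTX the array lay below its CTL array on 4 of 4 slides, and the sizes are not compared between slides, because no TTX array was well above background. The TTX call was lost with averaged slide sets, while the difference between TTX and BC stayed past the thresholds under all 27 alternatives.

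Markers of GABAergic interneurons were also lower with TTX, when 11 of 15 passed the thresholds as lower and 1 as higher, and their summed signal was 137100 to 146700, compared to 327000 to 381100 in CTL and 435900 to 496800 in BC. Cort, which encodes the interneuron peptide cortistatin, was lower with TTX by −3.95 (limma adjusted p = 1.77e-07) and higher with BC by 1.19 (adjusted p = 5.28e-04). These were the largest changes among the 15 in both comparisons. Calb2 went the other way in both, at 0.67 with TTX (limma adjusted p = 7.14e-04) and −0.80 with BC (adjusted p = 2.68e-04). With BC, 3 of the 15 interneuron markers were higher and 1 was lower, a median shift of 0.09. The part of these cells in the Car7 values was not tested.

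Car4 encodes a carbonic anhydrase anchored to the outer face of the membrane, where it buffers extracellular pH and is also known from brain capillaries. Its log2 signals were 6.88, 6.92, 7.29 and 6.17 in CTL (6.81 ± 0.47, SD, n = 4) and 5.91, 5.88, 5.36 and 5.53 in TTX (5.67 ± 0.27, SD, n = 4). In BC they were 6.20, 6.08, 6.29 and 6.28 (6.21 ± 0.10, SD, n = 4). All TTX arrays lay below all CTL and all BC arrays, and BC overlapped CTL through CTL replicate 4, the lowest of its group. The TTX fold change was 0.452 (log2 −1.14 ± 0.21, SE), with −1.004, −1.76, −1.01 and −0.80 within slides 1 to 4. It was −0.71 to −0.66 without background correction or with normexp. The TTX call was lost with slide set as a random block, with averaged slide sets and in the fit of the TTX and CTL arrays alone with the replicate block. For BC the log2 difference was −0.60 ± 0.21 (SE), and it passed the thresholds only without CTL replicate 4 (−0.82). Car4 was thus below the CTL mean under both treatments, unlike Car7. Markers of endothelial and mural cells and fibroblasts had a summed signal of 8582 to 10000 in TTX, 11790 to 14690 in CTL and 19280 to 26120 in BC, with 3 of 12 lower in TTX and 3 of 12 higher in BC. The list median was 0.01 with TTX and 0.56 with BC on the log2 scale. The genes lower with TTX were Lum (−0.98) and Dcn (−0.62), which mark fibroblasts, and Rgs5, which marks pericytes. Rgs5 was well above background on 2 CTL arrays and on no TTX array, so no fold is given. The endothelial receptors Flt1 (−0.01) and Kdr (0.04) did not pass with TTX. Other endothelial genes lay near background, so no fold is given. Cldn5 was well above background on 2 CTL, 0 TTX and 4 BC arrays, and Vwf on 2, 2 and 4. In at least 1 group 9 of these 12 were well above background on each array, Pecam1 was so on none, and their part in the Car4 values was not tested.

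Car2 encodes the abundant cytosolic carbonic anhydrase of oligodendrocytes and glia, also present in neurons. Its log2 signals were 11.12, 10.79, 11.13 and 11.28 in CTL, 11.43, 11.43, 11.71 and 11.36 in TTX and 11.07, 11.21, 10.99 and 10.96 in BC. The lowest TTX array was above the highest of the other 8. The difference from CTL was 0.40 ± 0.11 (log2, SE), a fold change of 1.32 that reached neither threshold (limma adjusted p = 0.051). It was 0.31, 0.23, 0.64 and 0.43 within slides 1 to 4. BC and CTL overlapped and differed by −0.02 ± 0.11 (log2, SE). The summed signal of the 12 oligodendrocyte markers was 32640 to 51960 in CTL, 44430 to 71220 in TTX and 38490 to 47130 in BC. Of these 12, 1 was higher and 1 lower with TTX, and their part in the Car2 values was not tested.

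Car11 and Car10 encode carbonic anhydrase-related proteins, which lack the catalytic activity of the family and are abundant in brain. Car11 had log2 signals of 14.52, 14.51, 14.76 and 14.75 in CTL, 14.44, 14.48, 14.65 and 14.56 in TTX and 14.35, 14.34, 13.98 and 14.06 in BC. The BC arrays were all below the others, by −0.46 ± 0.10 (log2, SE) from CTL, whereas TTX overlapped CTL (−0.10 ± 0.10, log2, SE). The BC difference of Car11 was even across slides, at −0.54, −0.42, −0.46 and −0.40, and its fold change of 0.729 did not reach the fold threshold. The only probe that the array describes as Car10 carries an accession in place of a gene name and so falls outside the rule. It was on none of the 12 arrays well above background, with mean log2 signals of 1.61 in CTL, 1.54 in TTX and 1.54 in BC.

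Slc12a5 was read by a pair of probes. The brighter one gave log2 signals of 16.73, 16.69, 16.79 and 16.82 in CTL, 16.76, 16.71, 16.89 and 16.86 in TTX and 16.66, 16.55, 16.17 and 16.30 in BC. The 4 BC arrays were the lowest of the 12, and the TTX and CTL arrays overlapped. The difference from CTL was −0.34 ± 0.10 (log2, SE) with BC, a fold change of 0.792, and 0.05 ± 0.10 (log2, SE) with TTX. The dimmer probe, which spans a splice junction, gave −0.37 ± 0.21 with BC and 0.12 ± 0.21 with TTX (log2, SE). Its signals were 8.17, 8.18, 7.48 and 7.63 in CTL, 8.17, 8.31, 7.70 and 7.77 in TTX and 7.28, 7.20, 7.76 and 7.75 in BC, so its groups overlapped. The spread of this dimmer probe followed the slides, and within slides 1 to 4 the BC difference was −0.41, −0.27, −0.43 and −0.35. The BC difference of the brighter probe was larger on slides 1 and 3 (−0.56 and −0.39) than on slides 2 and 4 (−0.24 and −0.16). Neither probe reached the fold threshold in any comparison. For BC against CTL neither had a limma adjusted p under 0.05 in the main fit, which ignores slides (0.0723 for the brighter and 0.420 for the dimmer). With slide as a block the SE of the BC difference was 0.07 for the brighter and 0.06 for the dimmer probe. Over the 27 alternatives the limma adjusted p of Slc12a5 for BC ranged from 0.00611 to 0.408.

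Slc12a2 was also read by a pair of probes. The brighter gave 8.84, 8.90, 8.83 and 8.95 in CTL, 8.97, 8.92, 9.03 and 8.87 in TTX and 9.03, 9.11, 9.03 and 9.28 in BC on the log2 scale. The BC arrays lay above all CTL arrays, by 0.23 ± 0.07 (log2, SE) on average, a fold change of 1.18. The dimmer probe did not show this: its BC difference was −0.00 ± 0.15 and its TTX difference 0.16 ± 0.15 (log2, SE), and its values overlapped between all groups, from 5.52 to 6.23. The probes of Slc12a2 therefore disagreed on BC, and neither reached the fold threshold or a limma adjusted p under 0.05 in any comparison.

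The difference between Slc12a5 and Slc12a2 was also taken within each array from the brighter probes and set relative to the CTL mean. It was −0.25, −0.44, −0.74 and −0.85 on the BC arrays (−0.57 ± 0.28 on the log2 scale, SD, n = 4), against a CTL range of −0.09 to 0.08. In TTX it ranged from −0.10 to 0.12 (−0.02 ± 0.10, SD, n = 4). By these brighter probes the value was below the CTL range on 4 of 4 BC arrays. The dimmer probes did not separate the groups: the BC mean was −0.36 ± 0.33 (SD, n = 4), and its range of −0.77 to 0.01 overlapped the CTL range of −0.53 to 0.27. Both values come from the signals by which the members were chosen and carry no test.

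**Figure D3:**
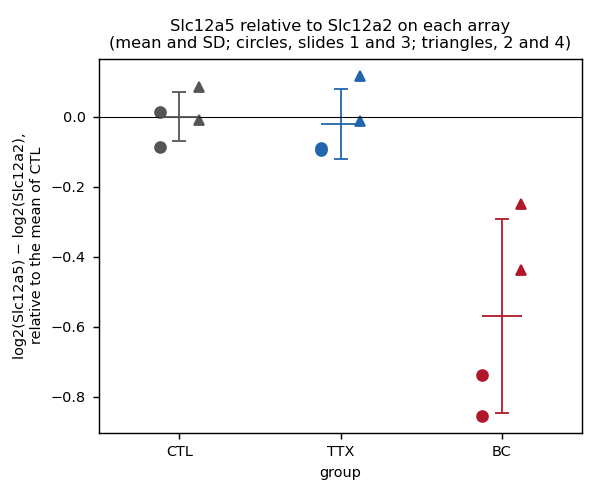
log2 signal of Slc12a5 minus that of Slc12a2 on each array (y axis, brighter probes, relative to the CTL mean) in the CTL, TTX and BC groups (x axis), with group mean and SD (n = 4); circles are slides 1 and 3 and triangles slides 2 and 4. The 4 BC arrays lie between −0.85 and −0.25, below all CTL and TTX arrays.

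Slc4a8, which takes up sodium and bicarbonate in exchange for chloride and is present at presynaptic terminals, was higher with TTX and, short of the fold threshold, lower with BC. Its log2 signals were 11.18, 11.17, 10.89 and 10.99 in CTL (11.06 ± 0.14, SD, n = 4), 11.72, 11.84, 11.39 and 11.72 in TTX (11.67 ± 0.20, SD, n = 4) and 10.63, 10.45, 10.55 and 10.43 in BC (10.52 ± 0.09, SD, n = 4). The groups did not overlap, with TTX highest and BC lowest. The TTX fold change was 1.53 (log2 0.61 ± 0.11, SE), just past the fold threshold, and it was 0.66, 0.83, 0.55 and 0.39 within slides 1 to 4. The TTX call was lost with normexp background correction, with the median signal, with the deposited log2 values, with averaged slide sets, without CTL replicate 3 and without TTX replicate 2. With BC the fold change was 0.688 (log2 −0.54 ± 0.11, SE), which fell just short of the threshold, and it was past it without CTL replicate 3 (−0.60). Between TTX and BC, Slc4a8 differed 2.22-fold (log2 1.15 ± 0.11, SE), at 1.29, 1.27, 1.29 and 0.75 within slides 1 to 4, and this call was kept under all 27 alternatives. The 8 glutamatergic markers had a summed signal of 35140 to 44160 in CTL, 52660 to 59340 in TTX and 25290 to 30780 in BC, with 2 higher in TTX and 2 lower in BC. Neurod2, a transcription factor of these neurons, was at 0.75 with TTX and −0.72 with BC on the log2 scale (limma adjusted p = 1.08e-03 and 1.60e-03). The part of these cells in the Slc4a8 values was not tested.

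Slc4a3, which exchanges intracellular bicarbonate for chloride, stayed close to its CTL level. Its log2 signals ranged from 13.58 to 13.76 in CTL, 13.55 to 13.72 in TTX and 13.43 to 13.80 in BC. The differences from CTL were −0.02 ± 0.08 with TTX and −0.06 ± 0.08 with BC (log2, SE), below the largest group SD of 0.15.

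**Figure D4:**
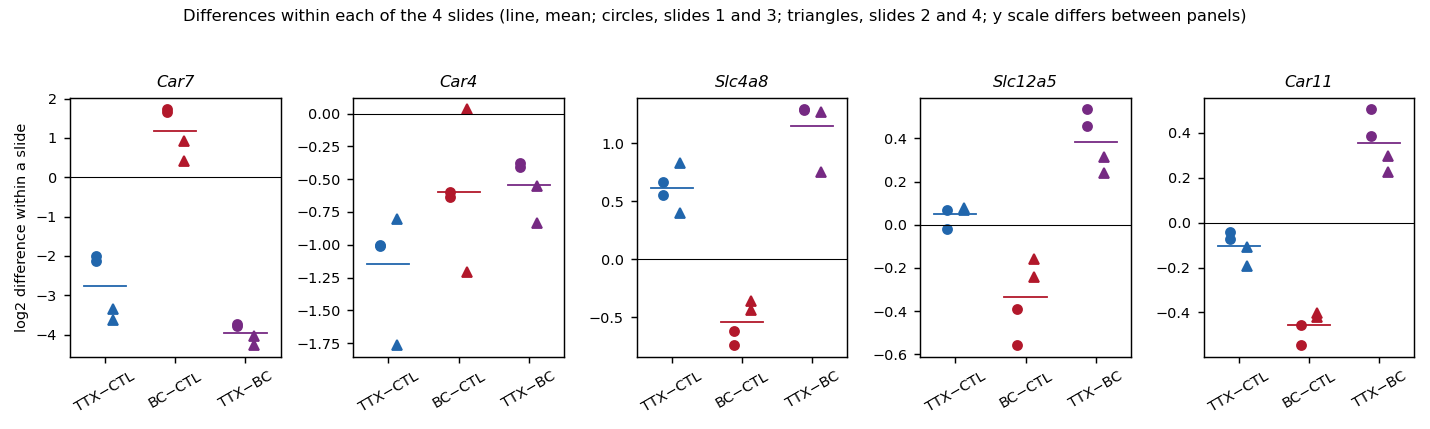
log2 difference within each of the 4 slides (y axis) for TTX minus CTL, BC minus CTL and TTX minus BC (x axis) in 5 members, with a line at the mean; circles are slides 1 and 3 and triangles slides 2 and 4, and the y scale differs between panels. The Car7 differences that involve TTX rest on signals not well above background and show a direction, not a size. Car7, Slc4a8, Slc12a5 and Car11 keep 1 direction on 4 of 4 slides for BC minus CTL, and Car4 ranges from −1.21 to 0.03.

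The promoters of the 3 members called with TTX are shown so that their letters can be compared, with the RefSeq sequence of the GRCr8 build from 250 bases before to 50 bases after the start of the gene. The letters of 7 motifs were searched on both strands, and matches are in capitals. Of 33469 rat promoters of this length, 1.83% held the cAMP response element TGACGTCA and 21.2% its first part TGACG. The AP-1 letters TGANTCA were in 7.33% and the EGR letters GCGNGGGCG in 4.98%. The E-box CACGTG was in 6.42%, the NPAS4 letters TCGTG in 17.0% and the TATA letters TATAAA in 14.2%. The Car7 window lies at chr19:444865-445164 on the minus strand, the Car4 window at chr10:70325108-70325407 on the plus strand and the Slc4a8 window at chr7:133742580-133742879 on the plus strand.
Car7 promoter: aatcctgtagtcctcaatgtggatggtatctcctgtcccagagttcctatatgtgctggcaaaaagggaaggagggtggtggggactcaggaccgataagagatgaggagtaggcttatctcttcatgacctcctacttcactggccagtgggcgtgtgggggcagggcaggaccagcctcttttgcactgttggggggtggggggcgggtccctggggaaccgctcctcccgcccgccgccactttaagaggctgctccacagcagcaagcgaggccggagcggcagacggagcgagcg
Car4 promoter: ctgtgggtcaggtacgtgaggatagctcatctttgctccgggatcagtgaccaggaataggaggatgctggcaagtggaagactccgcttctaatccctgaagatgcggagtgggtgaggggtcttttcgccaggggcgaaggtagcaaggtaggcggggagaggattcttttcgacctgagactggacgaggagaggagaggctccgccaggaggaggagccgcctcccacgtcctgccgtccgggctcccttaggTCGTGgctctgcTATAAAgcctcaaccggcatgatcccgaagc
Slc4a8 promoter: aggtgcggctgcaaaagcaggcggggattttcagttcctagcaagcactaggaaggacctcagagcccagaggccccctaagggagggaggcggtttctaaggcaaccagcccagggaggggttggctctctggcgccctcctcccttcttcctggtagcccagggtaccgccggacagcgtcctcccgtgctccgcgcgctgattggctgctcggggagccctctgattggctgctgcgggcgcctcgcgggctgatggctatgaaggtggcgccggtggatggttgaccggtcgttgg
Within these windows Car4 held TCGTG from base 8 and TATAAA from base 20 after the start, and Car7 and Slc4a8 held none of the 7. The windows of Car7, Car4 and Slc4a8 held 13, 17 and 20 CpG dinucleotides, compared to a median of 7 over all promoters. Of the other members, Car11 held 1 EGR match, and Slc12a2, Slc12a5 and Slc4a3 held none. A match in letters is a description and does not show that a factor binds there.

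The rest of the chloride and bicarbonate machinery was read through 7 lists with 93 genes, of which 85 had a probe. TTX passed the thresholds for 4 of the 85 (1 higher, 3 lower, 4.71%), BC for 3 (1 higher, 2 lower, 3.53%) and the difference between TTX and BC for 11 (4 higher, 7 lower, 12.9%). The shares over all genes given above were 4.18%, 3.6% and 10.9%. Median log2 fold changes of the 85 genes were −0.04, 0.03 and −0.04, against 0.01, −0.01 and 0.02 over all genes. With the arrays of a slide set averaged, limma called none of the 85 for TTX or BC against CTL, and 11 between TTX and BC.

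Among the other carbonic anhydrases, Car8, a carbonic anhydrase-related protein that binds the inositol trisphosphate receptor, was higher with TTX by 0.73 ± 0.13 (log2, SE; limma adjusted p = 5.54e-03). Car12, a membrane-bound isoform, was lower with BC by −1.04 ± 0.22 (limma adjusted p = 0.0138). The remaining 6 of 8 measured genes did not pass in either comparison with CTL. Of the SLC12 family, Slc12a4, which encodes the volume-regulated cotransporter KCC1, was higher in TTX than in BC by 0.75 ± 0.19 (adjusted p = 0.0132), and none of 6 passed against CTL. None of the 8 other SLC4 genes passed against CTL. Slc4a5 passed between TTX and BC, but it was on no array well above background, and no fold is given.

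Slc26a4 encodes pendrin, an exchanger of chloride with bicarbonate and iodide. It was lower with TTX by −0.99 ± 0.08 (limma adjusted p = 4.87e-05) and lower in TTX than in BC by −1.48 ± 0.08 (adjusted p = 6.73e-07), the only 1 of 9 measured SLC26 genes to pass. Slc9a2, a sodium-proton exchanger of the plasma membrane, was lower with BC by −1.17 ± 0.09 (adjusted p = 4.10e-05) and higher in TTX than in BC by 0.92 ± 0.09 (adjusted p = 2.56e-05). The 8 other SLC9 genes passed in none of the 3 comparisons.

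Of the 17 kinases and partners of the cotransporters, none passed both thresholds against CTL, and 1 did between TTX and BC. Nedd4l, a ubiquitin ligase of membrane transporters, was lower in TTX than in BC by −0.73 ± 0.10 (limma adjusted p = 3.13e-04). Stk39, the kinase SPAK that phosphorylates NKCC1 and KCC2, differed by −0.35 ± 0.08 with TTX (adjusted p = 0.0171) and by −0.43 ± 0.08 between TTX and BC (adjusted p = 2.28e-03), both under the fold threshold. Atp1b2, a β subunit of the sodium pump, differed by −0.47 ± 0.08 with TTX (adjusted p = 3.90e-03) and by −0.41 ± 0.08 between TTX and BC (adjusted p = 3.13e-03). Atp1b1, another β subunit, differed by −0.25 ± 0.06 with TTX (adjusted p = 0.0270). Cul3, a ubiquitin ligase scaffold that acts on the Wnk kinases, differed by −0.21 ± 0.06 with TTX (adjusted p = 0.0444), by 0.23 ± 0.06 with BC (adjusted p = 0.0398) and by −0.44 ± 0.06 between TTX and BC (adjusted p = 2.98e-04). Atp1b2, Atp1b1 and Cul3 were under the fold threshold in each comparison. Neto2, an auxiliary protein of KCC2, differed by 0.33 ± 0.07 between TTX and BC (adjusted p = 6.79e-03), also under it. Oxsr1, the kinase related to Stk39, was at −0.01 with TTX and 0.19 with BC. Ckb, the brain creatine kinase, was at −0.01 and 0.18, and Wnk1, Wnk2, Wnk3 and Wnk4, the kinases upstream of Stk39, ranged from −0.67 to 0.21 with TTX and from −0.15 to 0.31 with BC, without passing in any comparison.

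Of the 28 chloride channel genes with a probe, 2 passed as lower with TTX and 1 as higher with BC. Between TTX and BC, 5 were lower in TTX, and not all of the called genes are named here. Ttyh1, a membrane protein of the tweety family, was lower with TTX by −0.60 ± 0.12 (limma adjusted p = 0.0107). Glrb, the β subunit of the glycine receptor, was lower in TTX than in BC by −0.68 ± 0.11 (adjusted p = 1.21e-03), and Lrrc8c, a subunit of volume-regulated anion channels, by −0.63 ± 0.15 (adjusted p = 0.0112).

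**Figure D5:**
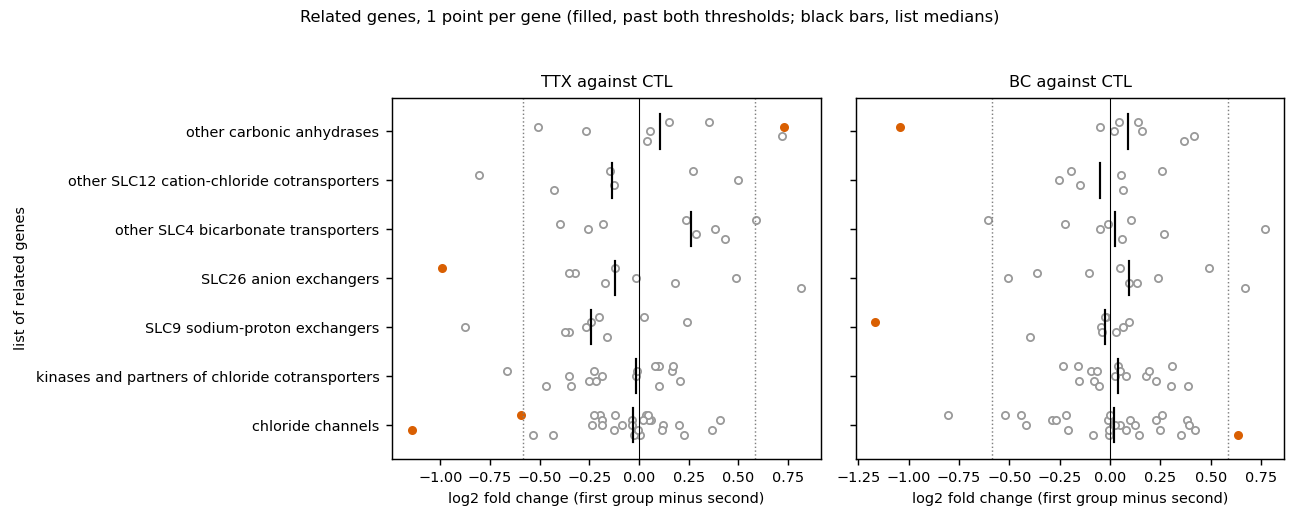
log2 fold change (x axis) of the 85 related genes with a probe, 1 point per gene, in 7 lists (y axis), for TTX against CTL and BC against CTL; filled points are past both thresholds, black bars are list medians and dotted lines the fold thresholds. The filled points number 4 with TTX and 3 with BC, and list medians lie between −0.24 and 0.26.

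The genes whose pattern over the 12 arrays was most like that of each member were ranked by Pearson's r among 12021 genes with a symbol that were well above background. Such r values are a description, since the arrays share treatments and slides. Car7 was closest to Srpk3, a muscle-enriched splicing kinase (r = 0.987), Cit, the citron kinase (0.986), and Slc5a6, a vitamin transporter (0.985). Slc4a8 was closest to the ribosomal gene Rps15 (0.991) and to the transcription factors Zeb2 (0.990) and Sox11 (0.983). Car4 was closest to the neuropeptide gene Cartpt (0.966), the transcription factor Bhlhe40 (0.956) and Plpp2 (0.955), a lipid phosphatase.

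Of the members that were called in no comparison, Car11 was closest to Ccnh (r = 0.948), Ggnbp2 (0.935) and the member Slc12a5 (0.933, and 0.910 after removal of the group means). Slc12a5 was closest to Srsf5 (0.984), Ddb1 (0.972) and Pik3cd (0.964), and Slc12a2 to Pigh (0.963), Eif1-ps8 (0.926) and Nck1 (0.895). Car2 was closest to Cyp7b1 (0.969), Cyp2j3 (0.958) and Ptn (0.957), and Slc4a3 to Colec12 (0.944), Pds5a (0.937) and Sgcz (0.930). For Car2 the r with Cyp7b1 was 0.964 after removal of the group means, so this likeness was also present within the groups, compared to 0.740 for Car7 and Srpk3.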

How the data were processed

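The 12 RNA samples from rat hippocampal neuron cultures (4 CTL, 4 TTX, 4 BC) were measured on one-color Agilent arrays of 41012 probes, and groups follow the sample labels. The authors deposited spot intensity values from Feature Extraction 9.5.1.1, corrected for background within the array and not normalized between arrays. The authors also deposited quantile-normalized log2 values with column medians of 7.372 to 7.378, which rank as the median spot signal (rank correlation at least 0.99998) and hold 1131 empty values in BC replicate 2. They served as an alternative.

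Processed intensities were taken to log2 without outlier spots and quantile-normalized. A model with 1 mean for each group was fitted to the 12 arrays in limma 3.58.1 (R 4.3.3, eBayes), and p-values were adjusted by Benjamini and Hochberg's method across the probes. Calls needed an adjusted p under 0.05 and a difference of 1.5-fold or more, as in the methods. Each gene was represented by its brightest probe. The number of arrays limits the precision. Python 3.11.15 with pandas 2.3.3 and matplotlib 3.10.9 did the rest, and the steps were tested on simulated data.

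Probes outside the members were named through RefSeq tables: 10813 by accession, 5133 by symbol and 3455 by synonym, and the array's own name was kept for 21611. The members, the lists of related genes and the marker lists were chosen with earlier results of these data known. Named genes are all members with every probe, up to 5 called genes per related list and comparison that stood well above background throughout 1 of the groups, the 3 genes most correlated with each member, 8 partners (Wnk1 to Wnk4, Stk39, Oxsr1, Ckb and Neto2) and 4 checks (Gad1, Gfap, Mbp and Pecam1). Cort, Calb2, Neurod2, Slc4a5, Lum, Dcn, Rgs5, Flt1, Kdr, Cldn5, Vwf, Atp1b1, Atp1b2 and Cul3 were named after their values were seen. No set test was run. The results of some single genes of the lists are not reported here, although they count in the totals.

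Pairing was checked after removal of the group means. Arrays with the same replicate number correlated at 0.28 to 0.38 between CTL and TTX, where they also lay in the same slide set. CTL and TTX arrays of the same slide set with different numbers correlated at 0.34 to 0.41, so the numbers do not show pairs beyond the slide set. Same numbers correlated at −0.35 to −0.24 between BC and CTL and −0.38 to −0.28 between BC and TTX, where they lay in different slide sets. The main fit used no pairing. Background alternatives were normexp (offset 50), the median signal and a restriction to probes well above background. Scaling alternatives were the 75th percentile and the deposited log2 values. Slide, slide set and replicate number were each fitted as a block, and slide sets also as a random block or as averages. Other alternatives fitted a pair of groups alone, used a trended robust eBayes, dropped the fold threshold, averaged a gene's probes or left out 1 array. The replicate block in a fit of a pair of groups was added after seeing the data. QPCR, immunoblots and recordings were not used here.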

Additional observations from a re-analysis of the deposited data

How the results depend on the processing

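With slide set averaged, which leaves 2 values per group, no member was called for TTX or BC against CTL (0 and 0 members, compared to 3 and 1), nor was any related gene (0 and 0, compared to 4 and 3). For TTX against BC the averaged fit called 11 related genes. The share of all genes called in the averaged fit is not given here, so its counts have no background. The call of Car7 with BC was also lost with slide set as a random block (0 members) and with the replicate block (0 members), over all groups or over the 2 compared (0 members). In a fit of only the 2 groups compared, the replicate block left 1 related gene for BC and 6 for TTX against BC (3 and 11 otherwise), and the call of Car4 with TTX was lost in it. Counts of called members with TTX were 3 with the replicate block and 2 with it in a fit of 2 groups. Without a fold threshold the members called numbered 3 for BC (Car7, Car11 and Slc4a8). For TTX against BC they numbered 5 (Car2, Car7, Car11, Slc12a5 and Slc4a8). Related genes called without a fold threshold numbered 12, 8 and 29 for TTX, BC and TTX against BC. The share of all genes called without a fold threshold is not given here. These counts therefore have no background, and the shares printed above, which used both thresholds, do not serve as one.

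Leaving out 1 array at a time gave 2 to 3 called members with TTX, 0 to 2 with BC and 2 to 2 for TTX against BC, and 3 to 5, 3 to 4 and 10 to 13 called related genes. For BC no member was called without BC replicate 2, 3 or 4 or CTL replicate 1 or 2, and Car4 and Car7 were called without CTL replicate 4. The cause of these losses was not tested. No called member changed direction under any of 27 alternatives. Log2 fold changes ranged from −2.97 to −0.68 for Car7 and from 0.55 to 0.71 for Slc4a8 with TTX. The Car7 value closest to 0 came from normexp, which adds an offset to every signal. Signal over background limits the dim members, and Car7 with TTX has only a bound.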
